A study of Mus musculus with 10 samples.

Results

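The genes described here are 10 inflammatory chemokine ligands, chosen by name from the 56884 genes of the count table: Ccl2, Ccl3, Ccl4, Ccl5, Ccl6, Ccl9 and Ccl12 of the CC family, and Cxcl9, Cxcl10 and Cxcl16 of the CXC family. Their mRNA was measured by bulk RNA-seq in the hippocampus of 10 female P301S (PS19) mice, with 1 library per mouse. Both groups carry human Tau with the P301S mutation, expressed from the mouse Prnp promoter, and all of the mice kept their ovaries. At 6 months of age, 5 mice received a subcutaneous SILASTIC implant holding 10 mm of dihydrotestosterone (DHT) powder, an androgen that cannot be turned into estrogen, and 5 received an empty implant (void). Tissue was taken after 12 weeks, at 9 to 9.5 months, and the comparison addresses which genes differ with elevated androgen in female tauopathy. There was no wild-type or male group among these libraries, so the values speak only of females that express mutant Tau.

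Chemokines are small secreted proteins that draw leukocytes along a concentration gradient through G protein-coupled receptors. Transcription of most inflammatory chemokines is switched on by danger signals, cytokines and interferons rather than kept at a steady level. In the brain, microglia, border macrophages and astrocytes are their main sources during disease, and the proteins act on microglia themselves and on monocytes and T cells that enter from blood. Bulk tissue gives 1 value per mouse over all cells, so more cells of a type and more RNA per cell cannot be told apart.

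Of the 10 ligands, 9 had enough counts to be tested, and each of the 9 rose in DHT-treated mice by more than 1 on the log2 scale at a Benjamini-Hochberg adjusted p under 0.05 over 17622 genes by edgeR's quasi-likelihood method. By the same limits 382 genes, or 2.17% of those tested, were higher with DHT and 4, or 0.0227%, were lower. Among the tested ligands the changes ran from a log2 fold change of 1.53 for Ccl9 to 3.11 for Cxcl10, which ranked 7 by size among all genes tested. Ccl2 was too scarce for the filter and was not tested. Levels of genes are given in CPM, counts scaled to a common library size by edgeR's TMM method. The filter used CPM on library sizes before that scaling, and kept genes at or above 0.292 in at least 5 libraries. The 6 members Ccl3, Ccl4, Ccl5, Ccl12, Cxcl9 and Cxcl10 reached that level in fewer than 5 void libraries. Without their DHT libraries they would not have been tested. Their number among the calls is therefore no measure of how the ligands as a class behaved. Ccl6, Ccl9 and Cxcl16 reached the filter level in every library of both groups.

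Total counts per library ranged from 27188854 to 47113661, and a count of 3 was worth between 0.0637 and 0.110 CPM before TMM scaling. Several members therefore rest on a handful of reads in void-treated mice. Counting error and the spread between mice are both inside the fitted standard errors (SE). The S numbers in the sample titles are lower for every void library than for every DHT library, and the labels do not say what those numbers record. Nothing in the labels says which mice shared a litter or a cage. The study's methods state that animals were caged with others of the same treatment and that littermates were randomized to implants. Cage and treatment therefore cannot be told apart in these libraries.

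**Figure D1:**
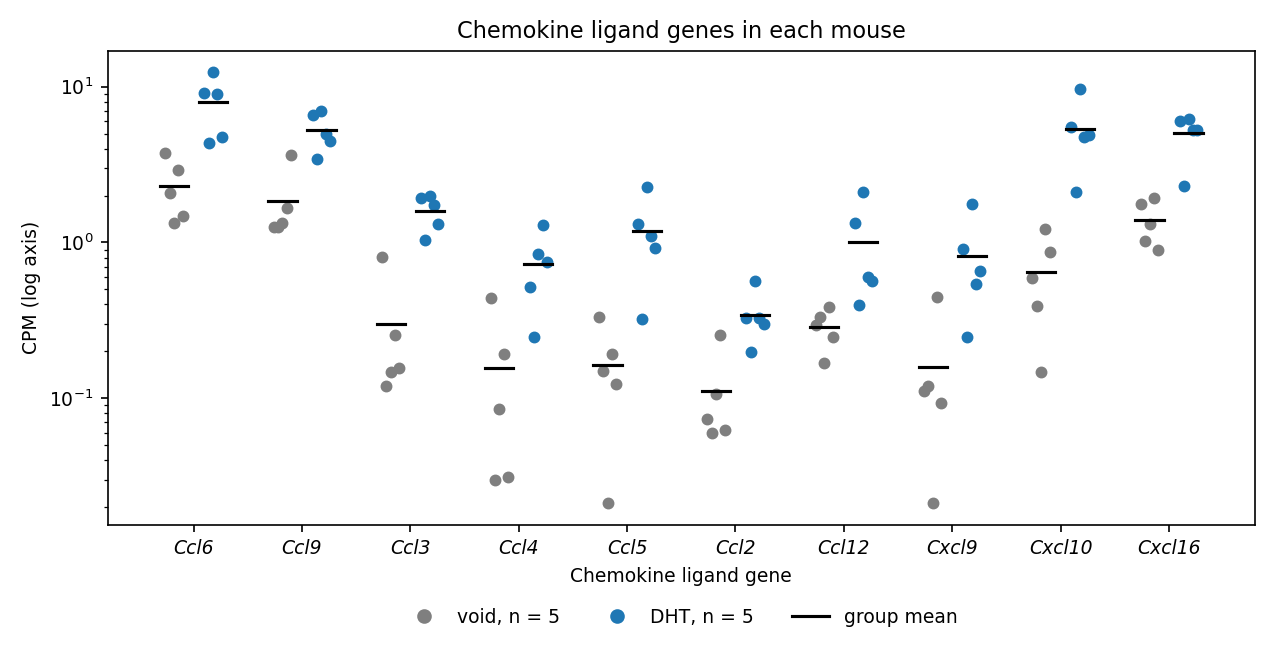
Level of each of the 10 ligands in each mouse, in CPM on a log axis. Grey points are the 5 void-treated mice, blue points are the 5 DHT-treated mice, and bars are group means. The mean of Cxcl10 went from 0.642 to 5.39 CPM, and the groups separated fully for Ccl3, Ccl6, Ccl12, Cxcl10 and Cxcl16.

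Cxcl9 and Cxcl10 are ligands of Cxcr3, the receptor of activated T cells and NK cells, and both are textbook targets of interferon. They lie side by side with Cxcl11 on chromosome 5. Cxcl10 (ENSMUSG00000034855) was at 0.590, 0.389, 0.148, 1.21 and 0.869 CPM in void-treated mice 10, 11, 4, 5 and 9. With DHT it was at 5.49, 2.12, 9.68, 4.73 and 4.91 CPM in mice 1, 2, 3, 5 and 6. Every DHT-treated mouse was above every void-treated mouse, with the lowest, DHT 2, still above the highest, void 5. The means were 0.642 ± 0.415 CPM in void-treated and 5.39 ± 2.73 CPM in DHT-treated mice (SD, n = 5 each). The log2 fold change was 3.11 (SE 0.49, adjusted p = 0.00761, edgeR quasi-likelihood), and it lay between 2.76 and 3.49 with each mouse left out in turn, called in all 10 fits. Transcripts of Cxcl10 share 3.59% of their 50-base windows with Art3, which overlaps it on the opposite strand and was at 2.64 ± 0.235 CPM in void-treated and 2.99 ± 0.529 CPM in DHT-treated mice (SD, n = 5 each). Art3 did not pass the test (adjusted p = 0.592 in edgeR).

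Cxcl9 (ENSMUSG00000029417) was at 0.111, 0.120, 0.0211, 0.447 and 0.0931 CPM in void-treated mice 10, 11, 4, 5 and 9, which is 1 to 14 reads. With DHT it was at 0.902, 0.247, 1.76, 0.539 and 0.655 CPM in mice 1, 2, 3, 5 and 6, or 10 to 84 reads. The groups overlapped, because DHT 2 was below void 5, the void-treated mouse that was also highest for Cxcl10. The log2 fold change was 2.45 (SE 0.64, adjusted p = 0.0469, edgeR quasi-likelihood). That call was near its limit: it remained only without void 5 (adjusted p = 0.0242) or without DHT 2 (adjusted p = 0.0237), and was lost when any 1 of void 4, 9, 10 and 11 or DHT 1, 3, 5 and 6 was left out, at adjusted p up to 0.130, while the log2 fold change stayed between 1.91 and 3.33. Cxcl11, their neighbour, was at 0 to 0.128 CPM with void and 0.0299 to 0.210 with DHT and was too scarce to test.

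The promoters of this neighbouring pair are shown because the 2 genes sit next to each other, share a receptor and rose together, yet hold different motif matches. Each is the 250 bases before the RefSeq start site on the minus strand of GRCm38.p6, at chr5:92348890-92349139 for Cxcl10 and chr5:92328080-92328329 for Cxcl9, printed 5′ to 3′ with motif matches in capitals.
Cxcl10: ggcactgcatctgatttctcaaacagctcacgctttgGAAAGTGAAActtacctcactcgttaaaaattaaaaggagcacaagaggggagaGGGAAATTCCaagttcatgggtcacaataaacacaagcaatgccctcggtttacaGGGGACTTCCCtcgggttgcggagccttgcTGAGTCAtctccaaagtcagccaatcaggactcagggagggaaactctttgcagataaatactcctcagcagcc
Cxcl9: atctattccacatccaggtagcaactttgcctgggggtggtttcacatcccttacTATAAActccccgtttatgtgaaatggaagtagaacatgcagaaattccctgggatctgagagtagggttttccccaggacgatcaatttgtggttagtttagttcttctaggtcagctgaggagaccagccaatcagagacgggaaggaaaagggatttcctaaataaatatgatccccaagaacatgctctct
In GENCODE M21 the Cxcl10 window lies inside the gene Art3 on the opposite strand, outside its exons, and the Cxcl9 window touches no gene. Read from 5′, the capitals of Cxcl10 mark an interferon-stimulated response element (ISRE) from -213 to -204, an NF-kB consensus match from -159 to -150, a pair of overlapping NF-kB matches starting at -104 and -103, and an AP-1 match (TGANTCA) from -74 to -68, where -1 is the base just before the start site. The capitals of Cxcl9 mark a TATA box match (TATAAA) from -195 to -190. Across the 32851 promoter windows of the same length, matches on either strand were held by 2.98% for the ISRE, 7.25% for NF-kB, 6.75% for AP-1 and 12.4% for the TATA box. A match is a description of letters and not evidence that a factor binds there.

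Cxcl16 is unusual among chemokines in that it is made as a membrane protein with a transmembrane stalk, from which Adam10 and Adam17 can shed the soluble ligand of Cxcr6. Cxcl16 (ENSMUSG00000018920, chromosome 11) was at 1.77, 1.02, 1.31, 1.92 and 0.900 CPM in void-treated mice 10, 11, 4, 5 and 9. With DHT it was at 6.04, 2.32, 6.20, 5.24 and 5.30 CPM in mice 1, 2, 3, 5 and 6. The groups did not overlap, although DHT 2 stood well below the other DHT-treated mice and close to void 5. From a mean of 1.38 ± 0.449 CPM (SD, n = 5) with void it rose to 5.02 ± 1.57 (SD, n = 5), a log2 fold change of 1.86 (SE 0.28, adjusted p = 0.00761, edgeR quasi-likelihood), called in all 10 fits that left out a mouse. Its transcripts share 16.9% of their 50-base windows with Zmynd15, which overlaps it on the opposite strand. The deposited counts do not state how strand or shared reads were handled, and Zmynd15 itself was at 0.234 ± 0.0534 CPM in void-treated and 0.436 ± 0.0545 CPM in DHT-treated mice (SD, n = 5 each). It passed the p limit only, at 0.91 in log2 fold (adjusted p = 0.0333, edgeR). Per kb of exon Zmynd15 was at 0.0530 and 0.0989 CPM in the 2 groups, against 0.458 and 1.66 for Cxcl16. Smaller shares of shared windows were found for Ccl9, at 1.97%, and Cxcl9, at 0.472%, and 0 for the other 6 ligands.

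Ccl3, Ccl4 and Ccl5, the macrophage inflammatory proteins 1 alpha and 1 beta and RANTES, attract macrophages, monocytes and T cells, and Ccl3 and Ccl5 bind Ccr1. They belong to a cluster on chromosome 11 that also holds Ccl6 and Ccl9. Ccl3 (ENSMUSG00000000982) was at 0.812, 0.120, 0.148, 0.256 and 0.155 CPM in void-treated mice 10, 11, 4, 5 and 9. It was at 1.94, 1.04, 1.99, 1.74 and 1.31 CPM in DHT-treated mice 1, 2, 3, 5 and 6. The groups did not overlap, and void 10 stood apart from the other 4 void-treated mice toward the DHT values. The mean went from 0.298 ± 0.292 CPM (SD, n = 5) to 1.60 ± 0.415 (SD, n = 5), and the log2 fold change was 2.50 (SE 0.44, adjusted p = 0.0099, edgeR quasi-likelihood), called with any 1 mouse left out at adjusted p up to 0.0367.

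Ccl4 (ENSMUSG00000018930), the gene next to Ccl3, was at 0.443, 0.0300, 0.0846, 0.192 and 0.0310 CPM in void-treated mice 10, 11, 4, 5 and 9, with 1 read each in mice 11 and 9. With DHT it was at 0.519, 0.247, 0.838, 1.29 and 0.744 CPM in mice 1, 2, 3, 5 and 6. Void 10 was again the highest void-treated mouse, above DHT 2, so the groups overlapped. The log2 fold change was 2.30 (SE 0.60, adjusted p = 0.0457, edgeR quasi-likelihood). The call remained without void 10 (adjusted p = 0.0260) and without DHT 2 (adjusted p = 0.0243) and was lost when any 1 of void 4, 5, 9 and 11 or DHT 1, 3, 5 and 6 was left out, at adjusted p up to 0.129, with log2 fold changes from 1.96 to 3.06.

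Ccl5 (ENSMUSG00000035042) was at 0.332, 0.150, 0.0211, 0.192 and 0.124 CPM in void-treated mice 10, 11, 4, 5 and 9. With DHT it was at 1.31, 0.321, 2.28, 1.11 and 0.923 CPM in mice 1, 2, 3, 5 and 6. Only DHT 2 fell within the void range, just below void 10, and the other 4 DHT-treated mice were clear of it. Its log2 fold change of 2.96 (SE 0.57, adjusted p = 0.0130, edgeR quasi-likelihood) was the second of the members by size and remained called with each mouse left out, at adjusted p up to 0.0479. Within the DHT group Ccl5 was 7.12 times as high in DHT 3 as in DHT 2.

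Ccl6 and Ccl9 are rodent chemokines of macrophages and myeloid cells that act mainly through Ccr1. Unlike most inflammatory chemokines, both are made at a steady level in adult mice without infection. Ccl6 (ENSMUSG00000018927) was at 3.73, 2.07, 1.33, 2.94 and 1.49 CPM in void-treated mice 10, 11, 4, 5 and 9. It was at 9.15, 4.37, 12.4, 9.04 and 4.76 CPM in DHT-treated mice 1, 2, 3, 5 and 6. The groups did not overlap, with DHT 2 and DHT 6 nearest to the highest void-treated mouse, void 10. The mean was 2.31 ± 1.01 CPM in void-treated and 7.94 ± 3.36 CPM in DHT-treated mice (SD, n = 5 each), and the log2 fold change was 1.80 (SE 0.35, adjusted p = 0.0128, edgeR quasi-likelihood), called with any mouse left out at adjusted p up to 0.0481.

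Ccl9 (ENSMUSG00000019122) was at 1.25, 1.26, 1.33, 1.66 and 3.66 CPM in void-treated mice 10, 11, 4, 5 and 9, and at 6.61, 3.43, 6.93, 5.0 and 4.47 CPM in DHT-treated mice 1, 2, 3, 5 and 6. The single overlap was void 9, which was above DHT 2, while the other 4 void-treated mice lay close together. The log2 fold change was 1.53 (SE 0.31, adjusted p = 0.0161, edgeR quasi-likelihood), and without void 11 it was 1.40 and no longer called (adjusted p = 0.0554). Void 9 also had the highest choroid plexus score of the void-treated mice (mean log2 CPM over 12 marker genes of the choroid plexus epithelium), 5.94, against 1.96 to 4.84 in the other 4 and 6.29 to 7.0 with DHT. With this score added to the fit, Ccl9 was the only tested member whose log2 fold change shrank, to 0.76 (SE 0.40, unadjusted p = 0.0858 in edgeR).

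The promoters of Ccl9 and Ccl3 are shown as a contrast within the chromosome 11 cluster, where Ccl9 held matches to 3 motifs and Ccl3 to 0. Both are the 250 bases before the RefSeq start site on the minus strand of GRCm38.p6, at chr11:83578637-83578886 for Ccl9 and chr11:83649379-83649628 for Ccl3, and neither touches a gene of GENCODE M21.
Ccl9: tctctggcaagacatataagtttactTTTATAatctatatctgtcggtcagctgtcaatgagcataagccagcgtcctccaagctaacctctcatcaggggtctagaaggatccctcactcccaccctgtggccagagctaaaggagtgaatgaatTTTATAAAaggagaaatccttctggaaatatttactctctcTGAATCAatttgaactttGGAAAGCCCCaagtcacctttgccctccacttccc
Ccl3: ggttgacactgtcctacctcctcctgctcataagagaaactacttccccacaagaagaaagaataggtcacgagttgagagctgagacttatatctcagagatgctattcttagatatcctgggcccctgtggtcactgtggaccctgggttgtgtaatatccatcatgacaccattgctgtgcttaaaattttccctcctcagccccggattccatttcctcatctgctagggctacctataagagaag
The capitals of Ccl9 mark, from 5′, a TATA box match on the other strand, a pair of overlapping TATA box matches on both strands from -94 to -87, an AP-1 match from -53 to -47 and an NF-kB consensus match on the other strand from -35 to -26. Of the 6 members with an entry in the RefSeq promoter table (Ccl3, Ccl6, Ccl9, Ccl12, Cxcl9 and Cxcl10), 1 held the ISRE, 2 an NF-kB match, 2 an AP-1 match and 3 a TATA box match. The interferon-gamma activated site (GAS, TTCNNNGAA), present in 7.02% of windows, and the direct repeat that orphan nuclear receptors such as TR4 can bind (DR1), present in 0.0335%, were found in 0 of the 6.

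**Figure D2:**
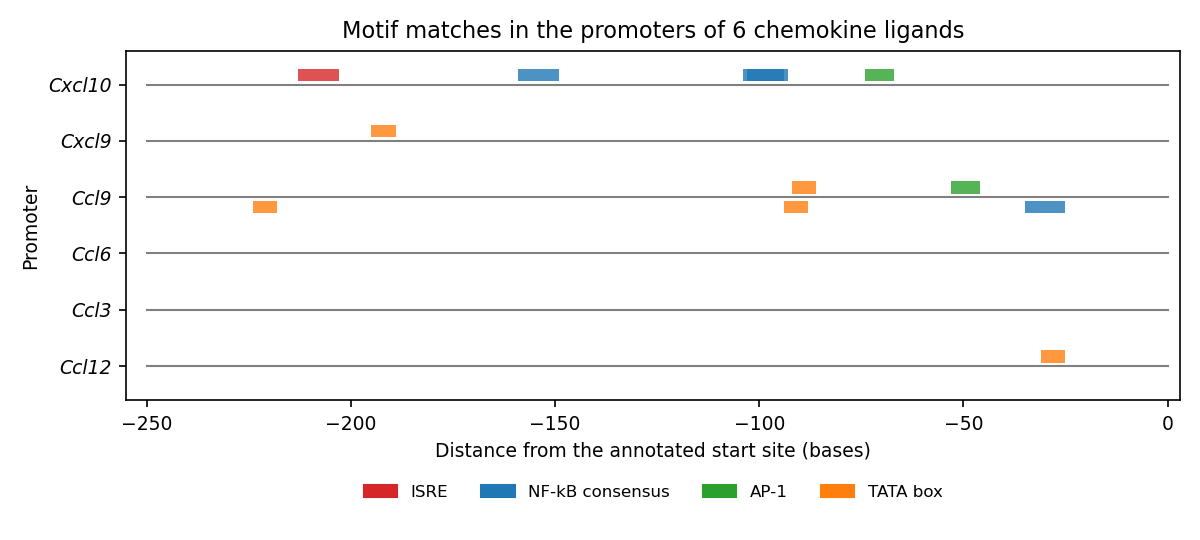
Motif matches in the 250 bases before the start site of the 6 ligands with a promoter entry, by distance from the start site in bases. Boxes above a line are matches on the gene's strand and boxes below it are on the other strand. Cxcl10 held the ISRE match and 3 NF-kB matches, and Ccl3 and Ccl6 held no match.

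Ccl2 and Ccl12, monocyte chemoattractants that act through Ccr2, lie in a second cluster on chromosome 11. Ccl12 (ENSMUSG00000035352) was at 0.295, 0.330, 0.169, 0.384 and 0.248 CPM in void-treated mice 10, 11, 4, 5 and 9. With DHT it was at 1.34, 0.395, 2.12, 0.599 and 0.566 CPM in mice 1, 2, 3, 5 and 6. The groups did not overlap, but DHT 2 was barely above void 5, and the highest values were in DHT 1 and DHT 3. The log2 fold change was 1.85 (SE 0.47, adjusted p = 0.0413, edgeR quasi-likelihood). The call was lost when any 1 of the 5 void-treated mice, DHT 1 or DHT 3 was left out, at adjusted p from 0.0643 to 0.116, and the log2 fold change was 1.34 without DHT 3.

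Ccl2 (ENSMUSG00000035385), the best known monocyte attractant, was scarce. It was at 0.0738, 0.0599, 0.106, 0.256 and 0.0620 CPM in void-treated mice 10, 11, 4, 5 and 9, or 2 to 8 reads, and at 0.328, 0.197, 0.566, 0.329 and 0.298 CPM in DHT-treated mice 1, 2, 3, 5 and 6, or 8 to 27 reads. Of the 5 DHT-treated mice, 4 were above the highest void-treated mouse, and DHT 2 was below void 5. A two-sided exact permutation test of the difference in mean log2 CPM gave p = 0.0159, unadjusted, where the smallest p that 5 against 5 mice allow is 0.00794. With edgeR fitted without the filter its log2 fold change was 1.60 (SE 0.43, adjusted p = 0.0557), and DESeq2 gave 1.61 (adjusted p = 0.0441). With all mice it reached the filter level in 0 void and 3 DHT libraries. It entered the filtered edgeR fit through its DHT libraries when void 5, 9, 10 or 11 was left out. Without void 5, its highest void-treated mouse, it was called at 2.11 in log2 fold (adjusted p = 0.0232, edgeR). Without void 9, 10 or 11 it was not called (adjusted p = 0.0869 to 0.141, edgeR). By these limits 1.34% of genes were higher in the edgeR fit without the filter and 2.3% in DESeq2. Of the other ligands of this cluster, Ccl7 reached at most 0.147 CPM, Ccl8 at most 0.137 and Ccl11 at most 0.180 in any library, and Ccl1 had no count.

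Under edgeR with library size alone or with DESeq2 size factors the same 9 ligands were called, where 2.28% and 2.07% of genes were higher, and with at least 10 counts required in every library 3 ligands were tested and called (Ccl6, Ccl9 and Cxcl16), where 1.7% were higher.

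Across the 10 ligands the same mice stood at or near the ends of the DHT group. DHT 2 was the lowest DHT-treated mouse for 10 of 10 ligands, and DHT 3 was the highest for 9 of 10, the exception being Ccl4, highest in DHT 5. The ratio of DHT 3 to DHT 2 ran from 1.92 for Ccl3 to 7.13 for Cxcl9. Void-treated mice were less uniform: void 5 was highest for Ccl2, Ccl12, Cxcl9, Cxcl10 and Cxcl16, void 10 for Ccl3, Ccl4, Ccl5 and Ccl6, and void 9 for Ccl9. Summed over the 10 ligands the level was 4.67 to 9.46 CPM with void, 14.7 CPM in DHT 2 and 23.9 to 44.7 CPM in the other DHT-treated mice. The 5 members Ccl3, Ccl6, Ccl12, Cxcl10 and Cxcl16 were higher in every DHT-treated than in every void-treated mouse, a pattern that 5.39% of tested genes had. Ccl3, Ccl12 and Cxcl10 were tested only because of their DHT libraries, and Ccl2 was not tested. The share over tested genes is therefore not a like comparison for the members.

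**Figure D3:**
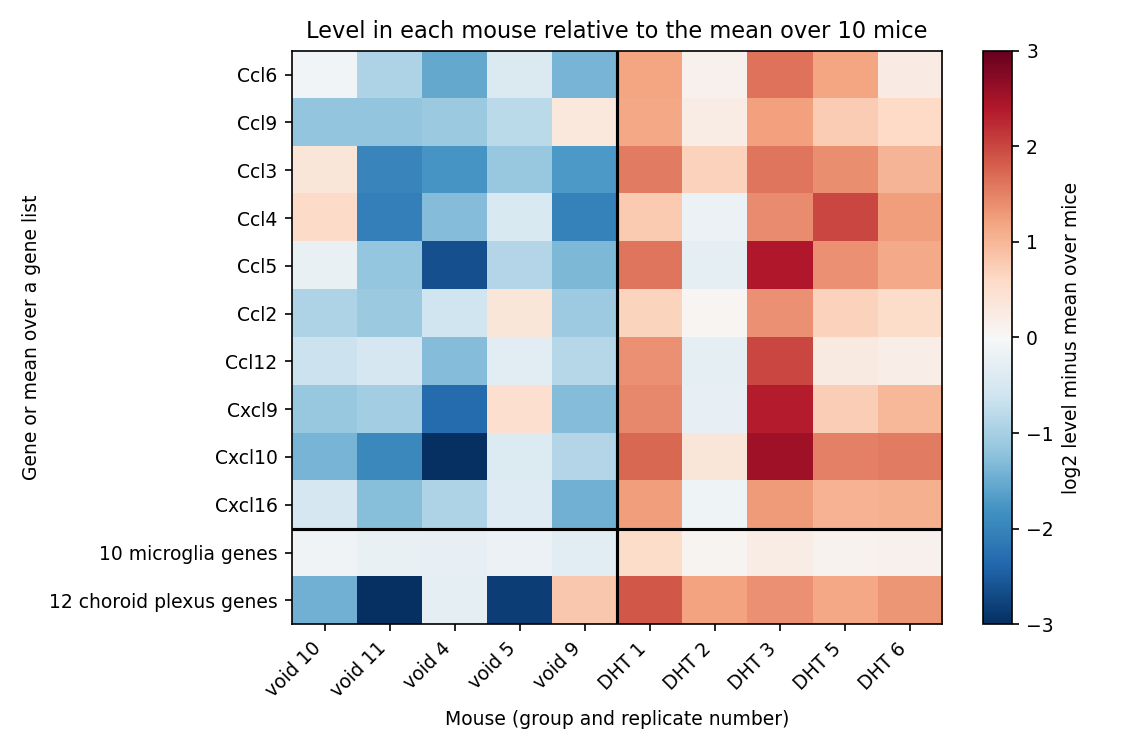
Level of each ligand in each mouse as log2(CPM + 0.05) minus its mean over the 10 mice, with the mean log2 CPM of 10 microglia genes and 12 choroid plexus genes treated the same way; colours stop at 3 in either direction. DHT 2 is the palest DHT column for the ligands, DHT 3 the strongest for 9 of 10, and void 9 is the void column nearest to DHT for Ccl9 and for the choroid plexus genes.

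Levels of different genes were compared per kb of exon, as CPM per kb. Ccl6 was the most abundant ligand in both groups, at 1.29 ± 0.564 CPM per kb (SD, n = 5) with void against 4.42 ± 1.87 (SD, n = 5) for DHT. With void it was followed by Ccl9 (0.602), Ccl12 (0.531), Cxcl16 (0.458), Ccl3 (0.389), Cxcl10 (0.285), Ccl4 (0.236) and Ccl5 (0.171). With DHT the order was Cxcl10 (2.39), Ccl3 (2.09), Ccl12 (1.87), Ccl9 (1.74), Cxcl16 (1.66), Ccl5 (1.24) and Ccl4 (1.10). Ccl2 and Cxcl9 were lowest in both groups, at 0.0979 and 0.0525 CPM per kb with void and 0.302 and 0.272 with DHT. The ranges over mice overlapped for every pair of neighbours in both orders, so the order shows levels and not differences between neighbours.

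Microglia genes as a sum were higher with DHT, without overlap between the groups, but no single one passed both limits. The 10 genes summed to 451 to 526 CPM with void and 634 to 894 with DHT, with 0 of 10 called by the fold limit and 4 (Cx3cr1, Gpr34 and Csf1r among them) at an adjusted p under 0.05 in edgeR, and their median log2 fold change was 0.46 against 0.009 over all genes tested. When libraries were scaled to these microglia genes instead of by TMM, the median of all genes moved to -0.42, and the log2 fold changes of the 9 tested ligands lay between 1.05 (Ccl9) and 2.65 (Cxcl10), each called in edgeR (adjusted p = 0.0055 to 0.0106) where 1.38% of genes (243) were called higher and 0.783% (138) lower.

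Markers of blood-borne cells were scarce next to those of microglia. The 10 T and NK cell genes summed to 0.996 to 1.64 CPM with void (mean 1.32) and 1.41 to 2.66 with DHT (mean 2.03), with overlap. Of the 10, 8 were under 0.5 CPM in every library, 2 were tested and 0 called in edgeR. Among all 10, tested or not, 3 were higher in every DHT-treated than in every void-treated mouse. The share of 5.39% for that pattern covers only genes that passed the filter, so it is not a like comparison. The part of T and NK cells in the ligand values was not tested. Ifng, the T and NK cell cytokine that induces Cxcl9, was at 0 to 0.0300 CPM with void and 0 to 0.0419 with DHT. All 6 neutrophil genes were under 0.5 CPM in every library. Monocyte genes summed to 0.352 to 1.89 CPM with void and 0.964 to 1.79 with DHT, and border macrophage genes to 2.33 to 15.0 and 5.09 to 11.6, so both lists overlapped between groups.

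Choroid plexus is a tissue that adjoins the hippocampus. Its 12 epithelial genes (such as Ttr, Kl and Otx2) summed to 352 to 3180 CPM with void and 3829 to 5495 with DHT. Of the 12, 5 were called, where 2.17% of all genes tested were called higher, and their median log2 fold change was 2.11. With their mean log2 CPM added to the fit, 0 of the 9 ligands were called, as were 0 of all genes (0%), while the log2 fold changes ranged from 0.76 for Ccl9 to 3.94 for Cxcl9 with larger SE (0.40 to 1.29). Unadjusted p in that edgeR fit was under 0.05 for 8 of the 9 and for 6.64% of all genes. Of the 9, 6 would not have passed the filter without their DHT libraries. Because every DHT-treated mouse scored above every void-treated mouse, choroid plexus content and treatment cannot be told apart in these libraries. Hippocampal neuron genes, which check the labelled tissue, summed to 823 to 1067 CPM with void and 783 to 1019 with DHT, and 0 of 6 were called. Astrocyte genes summed to 1499 to 1896 CPM with void and 1922 to 2936 with DHT, with Gfap called among 5, and their part in the ligand values was not tested.

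**Figure D4:**
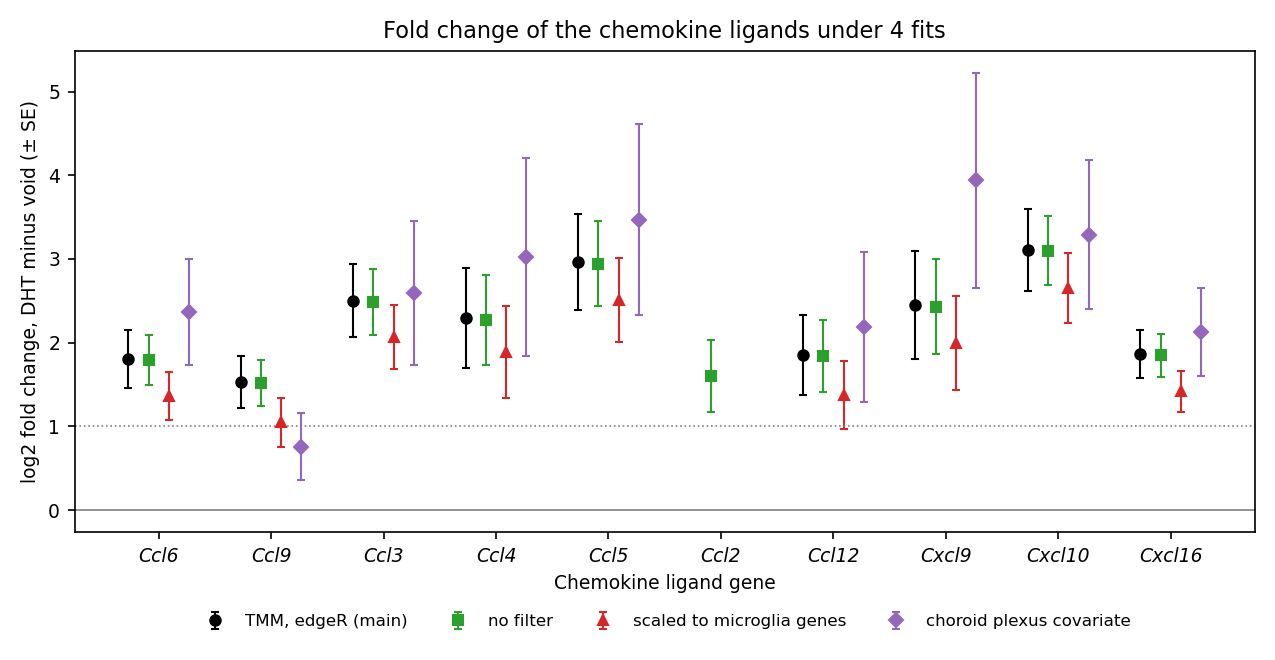
Log2 fold change of each ligand, DHT minus void, in 4 edgeR fits, with bars of 1 SE either side. The dotted line is the fold limit. Scaling to microglia genes lowered each value by a similar amount, and the choroid plexus covariate widened the bars and lowered only Ccl9, to 0.76; Ccl2 could be fitted only without the filter.

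No receptor of these ligands passed both limits. Of 24 chemokine receptor genes, 10 were tested and 0 were called by both limits in edgeR. Of those 10, 4 had an unadjusted p under 0.05, as did 17.4% of all genes tested. DESeq2 tested 13 receptors and called 2, Ackr4 and Ccr6, where 2.3% of all genes were called higher. Ccr6 was too scarce for the edgeR filter. Cx3cr1, the fractalkine receptor of microglia, had a log2 fold change of 0.54 (SE 0.12, adjusted p = 0.0251, edgeR quasi-likelihood), which passed the p limit only. Ccr2, the monocyte receptor of Ccl2 and Ccl12, had a log2 fold change of 0.23 (SE 0.41, adjusted p = 0.859), with 0.160 to 0.486 CPM with void and 0.119 to 0.71 with DHT.

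Ccr1, which reads Ccl3, Ccl5, Ccl6 and Ccl9, was too scarce to test, at 0.0310 to 0.221 CPM with void and 0.180 to 0.461 with DHT. Cxcr3, the receptor of Cxcl9 and Cxcl10, was at 0.0369 to 0.0959 CPM with void and 0.0299 to 0.273 with DHT and was not tested either. Cxcr6, the receptor of Cxcl16, was at 0 to 0.127 CPM with void and 0.179 to 0.328 with DHT. These 3 receptors stayed below 0.5 CPM in every library, and only for Cxcr6 did the groups not overlap. The median log2 fold change of the 10 tested receptors was 0.34 against 0.009 for all genes.

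Most chemokine ligands outside the 10 were too scarce to test. Of 29, 7 were tested and 1, Cxcl5, was called, where 2.17% of all genes tested were called higher. Cxcl5, a neutrophil attractant, was at 0.360 to 2.43 CPM with void and 3.44 to 7.92 with DHT, without overlap, with a log2 fold change of 1.52 (SE 0.38, adjusted p = 0.0400, edgeR quasi-likelihood). The call was lost when any 1 of void 4, 9 and 10 or DHT 1, 3, 5 and 6 was left out, at adjusted p from 0.0507 to 0.124. The steady ligands Cx3cl1 and Cxcl12 did not pass the test. Cx3cl1, the neuronal fractalkine, was at 502 ± 43.8 CPM in void-treated and 473 ± 77.9 CPM in DHT-treated mice (SD, n = 5 each), and Cxcl12 at 74.6 ± 7.02 and 71.3 ± 4.58 (SD, n = 5 each). Their log2 fold changes were -0.09 (adjusted p = 0.763) and -0.07 (adjusted p = 0.734) in edgeR. The 6 ligands Ccl1, Ccl21b, Ccl26, Cxcl3, Cxcl15 and Cxcl17 had no count in any library. That allows up to 0.0637 to 0.110 CPM per library before TMM scaling.

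Of 23 genes upstream of chemokine transcription or able to cut the proteins, 21 were tested and 3 were called higher: Irf7, Irf9 and Il1b. Among all genes tested 2.17% were called higher. Irf7, an interferon-induced transcription factor, was at 0.761 to 1.51 CPM with void and 2.99 to 10.6 with DHT, a log2 fold change of 2.18 (SE 0.33, adjusted p = 0.00761, edgeR quasi-likelihood). Irf9, the DNA-binding part of the complex that reads the ISRE, had a log2 fold change of 1.06 (SE 0.16, adjusted p = 0.00761), which fell below the fold limit without DHT 3 (0.89) and when libraries were scaled to microglia genes (0.61). Il1b, a cytokine of activated microglia, was scarce at 0.182 ± 0.0803 CPM in void-treated and 0.563 ± 0.138 CPM in DHT-treated mice (SD, n = 5 each), with a log2 fold change of 1.63 (SE 0.30, adjusted p = 0.0117 from edgeR). It reached the level that the filter asks for in 1 void and 5 DHT libraries, so it was tested only because of its DHT libraries.

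Other members of this list gave smaller values. Nfkb1, an NF-kB subunit, passed the p limit only, with 0.33 (SE 0.06, adjusted p = 0.0117 from edgeR). The enzymes that release Cxcl16 did not pass the test, with -0.02 for Adam10 (adjusted p = 0.950) and 0.34 for Adam17 (adjusted p = 0.138). Dpp4, which clips the ends of several chemokines, had -0.73 (SE 0.32, adjusted p = 0.260). The median of the 21 tested genes was 0.21.

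**Figure D5:**
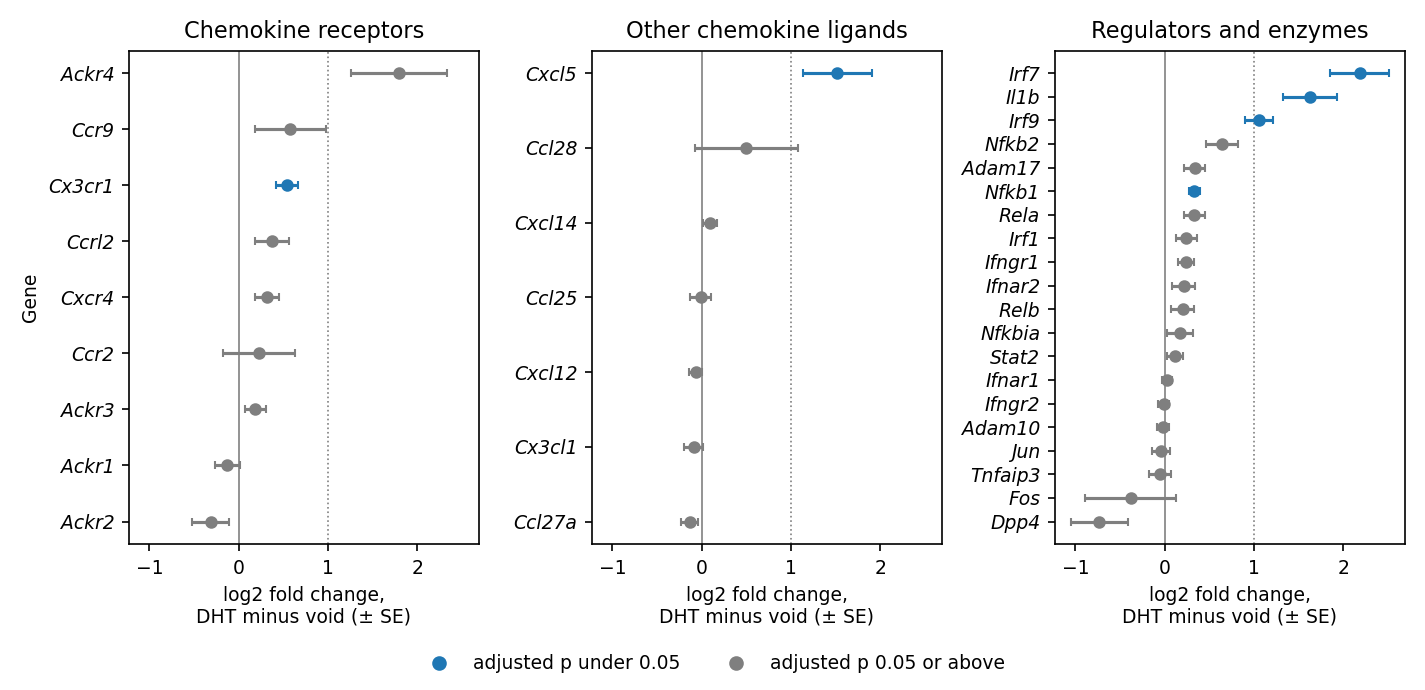
Log2 fold change, DHT minus void, of tested chemokine receptors, other chemokine ligands, and regulators and enzymes reported here, with bars of 1 SE either side. Blue points have an adjusted p under 0.05 in edgeR and the dotted line is the fold limit; Cxcl5, Irf7, Il1b and Irf9 pass both, and Ackr4 lies beyond the fold limit with an adjusted p of 0.0813.

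For each tested ligand the gene outside the 10 with the most similar pattern was found, by the smallest mean absolute difference in centred log2 CPM over the 10 libraries; all of the libraries share the group contrast, and a low value includes it. Cxcl9 lay nearest to Ifi207, an interferon-inducible p200 family gene, at 0.151. Ccl12 lay nearest to Gm5431 at 0.190 and Ccl9 to Sytl3 at 0.192. Ccl6 lay nearest to Slamf9, a SLAM family receptor of myeloid cells, at 0.217. Cxcl16 and Ccl3 both lay nearest to Cd52, a small surface glycoprotein of leukocytes, at 0.217 and 0.366. Ccl5 and Ccl4 both lay nearest to Siglecf, a sialic acid-binding receptor, at 0.333 and 0.439. Cxcl10 lay nearest to Fgr, a Src family kinase of myeloid cells, at 0.471. Of the 9, only Ccl4 had a nearer gene within the 10, Ccl3 at 0.431.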

How the data were processed

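Bulk RNA-seq was made from hippocampus of 10 female P301S mice, 5 per group. The authors deposited raw counts per gene, after HTStream had trimmed and filtered the reads and STAR had aligned them. The study's methods name mm10 as the genome, whereas the submitters' processing notes name mm39 and GRCm39 with STAR 2.7.10b. The annotation release and the handling of strand and multi-mapped reads are not given in the sources used here. Of 56884 identifiers, 51948 had a symbol in GENCODE M21, and 51911 of these carried a later version number, so that reference gave only names, exon lengths, neighbours and shared sequence. Promoters came from RefSeq (GRCm38.p6), and entries were found for 6 of 10 members.

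The members and gene lists were chosen with earlier results of these data known. Groups were taken from GEO's labels. The tests ran in edgeR 4.0.16 under R 4.3.3 (TMM, expression filter by group, quasi-likelihood test, Benjamini-Hochberg adjustment over 17622 genes), and a call needed both an adjusted p below 0.05 and a change past 1 in log2 fold. SE is the size of the log2 fold change over the square root of its F value. DESeq2 1.42.0 was the alternative count model. The p-values of the fits weigh the difference between groups against the spread between mice and counting error together. Single values were compared by two-sided exact permutation tests on log2 CPM (prior count 2). Named were all 10 members, receptors of the members (Ccr1, Ccr2, Cxcr3 and Cxcr6), every called gene of the receptor, other-ligand and regulator lists, and the gene nearest in pattern to each tested member. Other genes were named after their values were seen, and results for some listed genes are not reported here. No 2 libraries of the same group agreed within sampling noise. Other scalings, filters, a choroid plexus covariate and leaving out each mouse were tried as alternatives.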

Additional observations from a re-analysis of the deposited data

Results flagged for a closer look

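In 4 of the 38 groups of 5 mice examined, 1 mouse stood apart from the other 4, by a gap to its nearest neighbour that took more than 0.71 of the group's whole range on the log2 CPM scale. If values were normally distributed, chance would give about 1.9 such groups. The genes were measured in the same 10 mice, so the groups are not independent and that number is only a rough guide. Ccl9 was highest in void 9, at 3.66 CPM, with a gap of 0.740 of the range, and that mouse also had the highest choroid plexus score of its group. Cxcl16 was lowest in DHT 2, at 2.32 CPM (0.827), the mouse that was lowest of its group for 10 of 10 ligands. Among the other lists, Cxcl5 was lowest in void 11, at 0.360 CPM (0.837), and Irf7 was lowest in void 4, at 0.761 CPM (0.925). Why these mice stood apart was not tested.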

How the results depend on the processing

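Of the 9 ligands called, 9 remained called with library size alone, DESeq2 size factors in edgeR, no filter or scaling to microglia genes, and DESeq2 called 10, Ccl2 included. With at least 10 counts required in every library 3 were called (Ccl6, Ccl9 and Cxcl16, the only 3 still tested, where 1.7% of genes were higher), and with the choroid plexus covariate 0. Leaving out 1 mouse gave 5 to 9 of the 9 or 10 ligands then tested, with 5 without void 11, where 1.1% of genes were higher (0.987% to 2.86% over these fits). Receptors went from 0 to 2 with DESeq2, no filter or the adjusted p alone, to 1 with scaling to microglia genes, and to 0 to 1 with a mouse left out (Ackr4, without DHT 5). Other ligands went from 1 to 2 with DESeq2 or no filter (Cxcl13 added), to 0 with the covariate, and to 0 to 2 with a mouse left out: 0 without void 10 or DHT 1, 3, 5 or 6, and 2 without DHT 2. Regulators went from 3 to 0 with the covariate, to 4 with no filter (Tnf added) or the adjusted p alone, to 2 with at least 10 counts, and to 2 to 3 with a mouse left out. Scaling to microglia genes left 3, with Irf9 lost and Dpp4 called lower. Of 147 fitted values of called ligands under an alternative, 114 kept their call, 33 lost it and 0 reversed. The fits share the same 10 mice, so these values are not independent. Each of the 9 ligands lost its call with the choroid plexus covariate. The other losses came from leaving out a mouse and fell on Ccl4, Ccl9, Ccl12 and Cxcl9. The cause of these losses was not tested. No paired analysis was possible because the labels name no litters or pairs of mice. Replicate number 5 occurs in both groups, but nothing says that void 5 and DHT 5 were matched. Depth limits the scarce ligands most, with 1 to 14 reads of Cxcl9 and 1 to 12 of Ccl4 in void-treated mice.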

Other observations

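Of the genes too scarce for the edgeR filter, 3 are given here by mouse. Cxcl13, the B cell attractant, was at 0 to 0.148 CPM with void and 0.222 to 3.04 CPM with DHT, without overlap, and edgeR without the filter gave a log2 fold change of 3.81 (SE 0.71, adjusted p = 0.00512). Tnf, a cytokine of activated microglia, was at 0.0211 to 0.0899 CPM with void and 0.147 to 0.387 CPM with DHT, and was called higher in edgeR without the filter (log2 fold change 1.92, SE 0.49, adjusted p = 0.0418) but not by DESeq2 (adjusted p = 0.0542). Ccr6, the receptor of Ccl20, was at 2.60, 2.0 and 1.74 CPM in DHT 1, DHT 2 and DHT 3 and at most 0.0423 CPM in the other 7 mice, while Ccl20 itself was at most 0.0320 CPM in any mouse. These genes were singled out after their values were seen.

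Ackr4, a scavenger receptor that takes up Ccl19, Ccl21 and Ccl25, had a log2 fold change of 1.79 (SE 0.54, adjusted p = 0.0813 in edgeR). It passed the adjusted limit with DESeq2 (0.0148), and its log2 fold change was 0.11 with the choroid plexus covariate. Its level was 2.57, 2.3 and 2.01 CPM in DHT 1, DHT 2 and DHT 3. In DHT 5 and DHT 6 it was 0.509 and 0.98 CPM, against 0.0959 to 0.82 CPM with void, so the groups overlapped. Ccl28, a chemokine of mucosal epithelium, was at 11.2 CPM in DHT 3 against 0.666 to 3.54 CPM in the other 9 mice.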
